A study of Mus musculus with 9 samples.

Results

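The genes described here are leptin and a set of genes known to go with the expansion of fat mass in mice. Members were chosen by name: Lep, Mest, Sfrp5, Bmp3, Npr3, Sncg, Fgf13, Peg3 and Igf1. Of these 9 genes, 8 were among the 3958 genes of the count table, and Fgf13 was not analysed here. RNA came from adipose tissue of male C57BL/6J mice, an inbred strain that becomes obese on fatty food, at day 21. The design names electroacupuncture, in which current runs between acupuncture needles, on top of a high-fat diet, the high-fat diet alone, and a normal diet. The electroacupuncture group (EA) had 3 libraries, numbered 5, 7 and 8. The title prefix MPX had 3 libraries, numbered 2, 5 and 7, and the prefix CPX had 3, numbered 4, 6 and 8. No label ties MPX or CPX to a diet, so no difference between them is given a diet direction below. Neither the fat depot nor the age of the mice is stated, and the extraction text in the labels speaks of retinas.

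Leptin is the hormone by which fat cells report the size of the fat store to the brain, where it curbs feeding, and its mRNA in fat goes up as fat cells fill. In mice, several other fat cell genes are known to go up while fat pads expand, among them the imprinted gene Mest, the secreted Wnt inhibitor Sfrp5 and the bone morphogenetic protein Bmp3. Npr3 clears natriuretic peptides, hormones that drive fat breakdown, from the cell surface. Sncg is a small synuclein made in fat cells and in peripheral neurons, Peg3 is an imprinted zinc finger gene, and Igf1 is a growth factor made in liver and in many tissues under growth hormone.

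In 7 of the 8 genes, all but Igf1, the 3 MPX libraries lay above all 3 CPX libraries, against 8.46% of all genes. The nearest MPX and CPX libraries were close in Sncg (1177 and 1144 CPM), Bmp3 (123 and 116 CPM) and Npr3 (1404 and 1267 CPM). In 5 of the 7, Lep, Mest, Bmp3, Npr3 and Sncg, the 3 EA libraries lay below all 3 MPX libraries, against 19% of all genes. For Mest and Bmp3 that separation was narrow. Taken per count of fat cell marker genes, it held in 1 of the 8 (Sncg), against 3.06% of all genes. EA and CPX libraries overlapped in all 8. The spread within EA and within CPX was wide, and no gene of the 8, nor any of the 3958, passed the adjusted test in any comparison.

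The libraries were not alike in their cell markers, and this bears on every comparison below. The table's counts summed to 12115183 to 14208853 per library, and levels are given as counts per 1000000 listed counts (CPM) after scaling between libraries with TMM, a trimmed mean of gene ratios. All 19 fat cell markers of a fixed list, such as Adipoq and Plin1, were present, as the tissue label calls for. Their summed level was 74740, 61480 and 47950 CPM in EA 5, 7 and 8, 76030, 85120 and 84220 CPM in MPX 2, 5 and 7, and 138400, 12800 and 73190 CPM in CPX 4, 6 and 8. CPX 6 stood apart, with Adipoq at 373 CPM against 5399 and 2310 CPM in CPX 4 and 8. Markers of B lymphocytes (9 of 11 present) summed to 1325, 1832 and 3973 CPM in EA libraries and 509, 1241 and 1053 CPM in MPX libraries. In CPX they summed to 1625, 9755 and 4722 CPM. Their mean log2 level, relative to each gene's mean, was 1.99, 2.57 and 3.57 in EA 5, 7 and 8. It was -2.77, -1.98 and -3.58 in MPX 2, 5 and 7, and -2.82, 4.54 and -1.52 in CPX 4, 6 and 8. By this mean CPX 4 and CPX 8 lay below every EA library, which was not so for the sums. No marker of T cells, skeletal muscle, brown fat cells, retina or mammary and reproductive epithelium was among the listed genes. In bulk tissue, fewer cells of a type and less RNA per cell cannot be told apart.

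Upstream sequence is shown for leptin, and for Sfrp5 and Peg3, which had the widest differences between MPX and CPX next to Mest. RefSeq promoter windows (GRCm38.p6, the assembly of mm10) were found for 7 of the 8 genes. The 250 bases before each start site are shown 5′ to 3′ on the gene's strand, and positions count back from the start site, with -1 the base just before it. In leptin (chr6:29059971-29060220, plus strand) capitals mark an Sp1-type match, GGGCGG, beginning at -98 and a C/EBP match, TTGCGCAA, beginning at -55. C/EBP alpha is a factor that drives fat cell genes. In Sfrp5 (chr19:42202253-42202502, minus strand) capitals mark an Sp1-type match beginning at -43. Another Sp1-type match, beginning at -1, runs past the start site and is not in capitals. In Peg3 (chr7:6730420-6730669, minus strand) they mark a cAMP response element, TGACGTCA, beginning at -178 and the CCAAT box read on the other strand, ATTGG, beginning at -124 and at -69.
Lep: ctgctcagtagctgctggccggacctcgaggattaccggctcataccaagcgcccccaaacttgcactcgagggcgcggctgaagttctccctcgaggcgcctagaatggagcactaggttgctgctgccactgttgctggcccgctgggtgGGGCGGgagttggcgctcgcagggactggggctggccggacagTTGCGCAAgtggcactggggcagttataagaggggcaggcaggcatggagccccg
Sfrp5: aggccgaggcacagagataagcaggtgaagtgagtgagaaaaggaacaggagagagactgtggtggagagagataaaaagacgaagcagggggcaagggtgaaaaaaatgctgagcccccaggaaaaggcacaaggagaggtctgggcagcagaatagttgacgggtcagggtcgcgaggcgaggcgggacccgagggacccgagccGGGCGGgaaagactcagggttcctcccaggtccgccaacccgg
Peg3: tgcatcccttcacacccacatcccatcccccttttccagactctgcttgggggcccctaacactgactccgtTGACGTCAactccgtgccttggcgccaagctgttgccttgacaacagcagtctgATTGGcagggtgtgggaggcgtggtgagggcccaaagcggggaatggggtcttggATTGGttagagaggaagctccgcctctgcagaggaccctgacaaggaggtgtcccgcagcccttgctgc

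Matches of 8 letters were rare over all promoters and the short ones were common. Windows of 300 bases, from 250 before to 50 after the start, were searched on both strands for exact letters in all 32851 entries. TTGCGCAA was in 0.183% of them and, of the members, in leptin alone. TGACGTCA was in 1.79% and, of the members, in Peg3 alone. GGGCGG was in 35.7% of all windows and in those of Lep, Mest, Sfrp5 and Sncg, and CCAAT was in 37.4% and in those of Sfrp5, Npr3, Peg3 and Igf1. AGGTCA, a core that nuclear receptors bind, was in 16.3% and in Igf1. No member window held CACGTG (7.15% of all windows), GACGTG or TACGTG (9.35%), or TATAAA (13.6%). These are matches of letters, not sites of binding, and no motif searched was in all 7 genes. Bmp3 had no entry.

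Leptin (Lep, chromosome 6, 29060220 to 29073877, plus strand, mm10) was the 46th gene of the table by total count. It stood at 732, 1389 and 242 CPM in EA 5, 7 and 8, at 1624, 7222 and 4260 CPM in MPX 2, 5 and 7, and at 900, 86.7 and 1332 CPM in CPX 4, 6 and 8. All 3 MPX libraries were above the other 6, MPX 5 was the highest and CPX 6 the lowest, and the EA and CPX libraries were interleaved. Leptin took 0.726% of all listed counts in MPX 5 and 0.00933% in CPX 6. The group means were 788 ± 575 CPM in EA, 4369 ± 2801 CPM in MPX and 773 ± 632 CPM in CPX (SD, n = 3 each).

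The leptin difference was large and imprecise. For EA against MPX it was -2.47 on the log2 scale (SE 1.04), a mean 5.55-fold lower in EA, with an unadjusted p of 0.0432 and an adjusted p of 0.775. For EA against CPX it was 0.03 (SE 0.98, adjusted p = 0.999), so the means were close while each group spanned several-fold. For MPX against CPX it was 2.499 (SE 1.04), 5.65-fold, with an unadjusted p of 0.0416 and an adjusted p of 0.374. Tests were edgeR's quasi-likelihood test with Benjamini-Hochberg adjustment over all 3958 genes, here and below. An exact permutation test of 3 libraries against 3 could not go under p = 0.1.

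**Figure D1:**
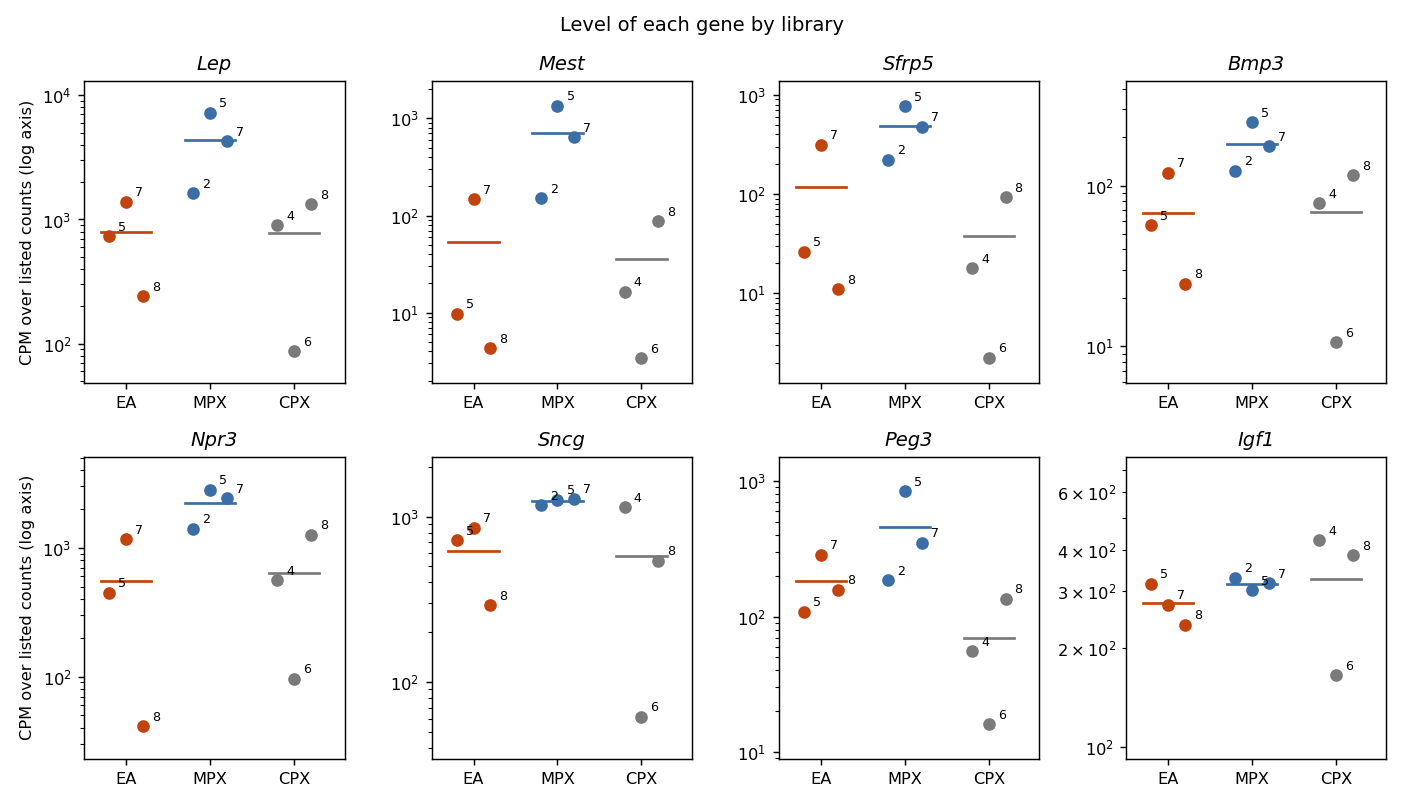
Level of each of the 8 genes in every library (CPM of listed counts, log axis), with EA, MPX and CPX from left to right. Points are libraries labelled by their number and lines are group means. In 7 genes the MPX points lie above all CPX points, with CPX 6 or EA 8 the lowest point, while the Igf1 groups overlap.

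Among the secreted factors, Sfrp5 had the widest spread. Sfrp5 (chromosome 19, 42197971 to 42202252, minus strand) binds Wnt ligands outside the cell and keeps them from their Frizzled receptors. It had 26.4, 316 and 10.97 CPM in EA 5, 7 and 8, 223, 768 and 476 CPM in MPX 2, 5 and 7, and 17.9, 2.23 and 92.5 CPM in CPX 4, 6 and 8. EA 7 lay inside the MPX range while EA 5 and EA 8 lay in the CPX range. The CPX 6 value rests on 29 counts, with a 95% Poisson interval of 19.4 to 41.6 counts that covers counting error only. The log2 difference was -2.05 (SE 1.45, adjusted p = 0.775) for EA against MPX, 1.65 (SE 1.44, adjusted p = 0.997) for EA against CPX, and 3.70 (SE 1.56, unadjusted p = 0.0435, adjusted p = 0.374) for MPX against CPX.

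Bmp3 (chromosome 5, 98854415 to 98884396, plus strand) encodes a ligand of the TGF-beta superfamily that restrains other bone morphogenetic proteins in bone. Its levels were 56.8, 121 and 24.5 CPM in EA 5, 7 and 8, 123, 248.6 and 176 CPM in MPX 2, 5 and 7, and 77.6, 10.6 and 116 CPM in CPX 4, 6 and 8. EA 7 and MPX 2 almost met, at 120.6 and 123.4 CPM, so the separation of EA from MPX was narrow. On the log2 scale the difference was -1.44 (SE 0.82, adjusted p = 0.775) for EA against MPX, -0.02 (SE 0.81, adjusted p = 0.999) for EA against CPX and 1.42 (SE 0.82, adjusted p = 0.440) for MPX against CPX. Bmp3 sorted the 9 libraries in the same order as leptin, from MPX 5 and MPX 7 down to EA 8 and CPX 6.

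Igf1 (chromosome 10, 87858265 to 87937042, plus strand) was the steady member. It had 315, 272 and 236 CPM in EA 5, 7 and 8, 329, 300.3 and 317 CPM in MPX 2, 5 and 7, and 427, 165 and 384 CPM in CPX 4, 6 and 8. The CPX libraries held both the highest and the lowest value, and all group ranges overlapped. The overlap with CPX rested on CPX 6, since CPX 4 and CPX 8 lay above every EA and MPX library. Without CPX 6, 17% of all genes had EA below CPX without overlap and 14.9% had MPX below CPX. The Igf1 log2 difference for EA against CPX was then -0.58 (adjusted p = 0.1605). The highest library had 2.59 times the lowest, against 83.3 times for leptin and 399.5 times for Mest. Its log2 difference was -0.20 (SE 0.35, adjusted p = 0.857) for EA against MPX, -0.25 (SE 0.35, adjusted p = 0.997) for EA against CPX and -0.05 (SE 0.35, adjusted p = 0.955) for MPX against CPX. An antisense gene, Igf1os, overlaps Igf1, and with no strand setting given their reads cannot be told apart.

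The receptor Npr3 (chromosome 15, 11839896 to 11907287, minus strand) takes up natriuretic peptides and so lowers the supply to Npr1, the receptor that makes cyclic GMP. Npr3 had 449, 1171 and 41.3 CPM in EA 5, 7 and 8, 1404, 2835 and 2430 CPM in MPX 2, 5 and 7, and 561, 96.0 and 1267 CPM in CPX 4, 6 and 8. It was the only gene of the 8 whose lowest library was EA 8 rather than CPX 6. On the log2 scale EA against MPX differed by -2.01 (SE 1.15, adjusted p = 0.775), EA against CPX by -0.21 (SE 1.11, adjusted p = 0.997) and MPX against CPX by 1.79 (SE 1.15, adjusted p = 0.471). Npr1 itself had 140, 132 and 120 CPM in EA 5, 7 and 8, 143, 123 and 112 CPM in MPX 2, 5 and 7, and 55.6, 39.8 and 128 CPM in CPX 4, 6 and 8. Its log2 difference was 0.05 (SE 0.39) for EA against MPX and 0.76 (SE 0.39) for MPX against CPX, with adjusted p of 0.973 and 0.413.

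The imprinted gene Mest (chromosome 6, 30723547 to 30748465, plus strand), expressed from the paternal copy and encoding a protein of the hydrolase fold, had the widest range of the 8 genes. Mest stood at 9.74, 148 and 4.33 CPM in EA 5, 7 and 8, at 151, 1349 and 639 CPM in MPX 2, 5 and 7, and at 16.5, 3.38 and 87.8 CPM in CPX 4, 6 and 8. EA 7 and MPX 2 nearly touched, at 147.8 and 150.8 CPM, and the other EA libraries were far below. EA 8 and CPX 6 rest on 60 and 44 counts, with 95% Poisson intervals of 45.8 to 77.2 and 32.0 to 59.1 counts. The log2 difference was -3.72 (SE 1.64, unadjusted p = 0.0512, adjusted p = 0.775) for EA against MPX, 13.2-fold lower in EA. It was 0.59 (SE 1.48, adjusted p = 0.997) for EA against CPX and 4.31 (SE 1.68, unadjusted p = 0.0325, adjusted p = 0.363) for MPX against CPX, 19.9-fold higher in MPX. Copg2, on the opposite strand and also in the table, overlaps the Mest end over 912 bases.

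Peg3 (chromosome 7, 6703892 to 6730431, minus strand), also expressed from the paternal copy, encodes a zinc finger protein. It had 108, 285 and 157 CPM in EA 5, 7 and 8, 186, 837 and 350.2 CPM in MPX 2, 5 and 7, and 55.7, 16.0 and 136 CPM in CPX 4, 6 and 8. EA lay between the other groups here: 2 of its libraries were above every CPX library, and EA 7 was above MPX 2. The log2 difference was -1.32 (SE 0.81, adjusted p = 0.775) for EA against MPX and 1.41 (SE 0.81, adjusted p = 0.997) for EA against CPX. For MPX against CPX it was 2.73 (SE 0.84), 6.63-fold, with the smallest unadjusted p of the 8 genes, 0.0114, and an adjusted p of 0.362. DESeq2 gave the same comparison a log2 difference of 2.74 with an adjusted p of 0.0128, the one call of a member under another count tool.

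Sncg (chromosome 14, 34370274 to 34374789, minus strand) was even in MPX and uneven elsewhere. It had 723, 858 and 291 CPM in EA 5, 7 and 8, 1177, 1269 and 1283 CPM in MPX 2, 5 and 7, and 1144, 61.6 and 542 CPM in CPX 4, 6 and 8. The coefficient of variation was 47.4% in EA, 4.63% in MPX and 93.1% in CPX. CPX 4, the library with the highest summed fat cell markers, came within reach of MPX 2, which no other EA or CPX library did. The log2 difference was -0.99 (SE 0.85, adjusted p = 0.775) for EA against MPX, 0.10 (SE 0.84, adjusted p = 0.998) for EA against CPX and 1.09 (SE 0.85, adjusted p = 0.534) for MPX against CPX.

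**Figure D2:**
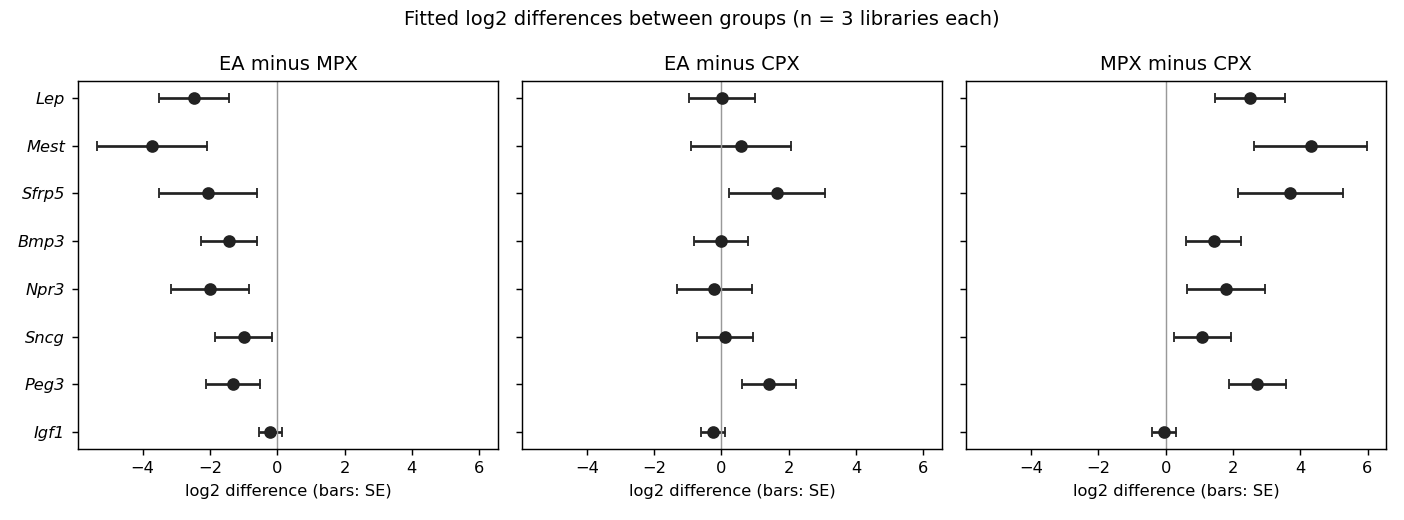
Log2 difference of each gene in EA minus MPX, EA minus CPX and MPX minus CPX, with its standard error from the edgeR fit (n = 3 libraries a group). EA minus MPX runs from -3.72 (Mest) to -0.20 (Igf1), and MPX minus CPX from -0.05 (Igf1) to 4.31 (Mest), while most bars of EA minus CPX span 0.

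The members were chosen with earlier results of these data known, so shares over all genes stand beside theirs as description only. For EA against MPX, 0 of 8 genes passed at an adjusted p of 0.05, against a background of 0%. At an unadjusted p of 0.05, leptin was the 1 member called, against 5.1% of all genes (202 genes, 83 higher and 119 lower). DESeq2 called 49 genes at its adjusted p, none of them a member, and limma voom called 0. The 3 EA libraries were below the 3 MPX libraries in 5 of 8 members, against 19% of all genes in that direction. Per fat cell marker count this held in 1 of 8 members, against 3.06% of all genes. In CPM, the count was 5 to 7 with any 1 library left out, and the background 19% to 27.9%. Leaving out a library cannot undo a separation, so the count could not fall below 5. The median log2 difference was -1.72 over the 8 members, all 8 negative, and 0.01 over all genes, of which 48.6% were negative. With B cell markers as a covariate that median turned to 0.62, but those markers do not overlap between EA and MPX, so the covariate and the group cannot be told apart.

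For EA against CPX, 0 of 8 genes passed the adjusted test and 0 the unadjusted one, against 0% and 2.96% of all genes (117 genes unadjusted). DESeq2 called 5 genes and limma voom 0, none of them a member. Groups did not overlap, in either direction, in 0 of 8 members and 7.18% of all genes. The members' median was 0.06, with 5 positive and 3 negative, beside -0.09 over all genes. The median turned negative without EA 7 (-0.71) or without CPX 6 (-0.48). Leptin, Bmp3 and Sncg differed between EA and CPX by at most 0.10 on the log2 scale, with standard errors of 0.81 to 0.98.

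For MPX against CPX, 0 of 8 genes passed the adjusted test, against 0% of all genes. At an unadjusted p of 0.05, 4 members were called (Lep, Mest, Sfrp5 and Peg3), all higher in MPX, against 13.2% of all genes (522 genes, 197 higher and 325 lower). DESeq2 called 201 genes, Peg3 the only member among them, and limma voom 0. The 3 MPX libraries were above the 3 CPX libraries in 7 of 8 members, against 8.46% of all genes in that direction. Leaving out a library cannot undo such a separation, so this count, 7 with each library left out in turn, could not fall. The background went up to 14.6% without MPX 2, 19.9% without CPX 4, 14.9% without CPX 6 and 17.5% without CPX 8. The members' median was 2.15, beside -0.11 over all genes. EA against MPX and MPX against CPX share the MPX libraries, so their values for a member are not independent.

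Compared per kilobase of the deposited gene length, Sncg and leptin were the most abundant of the set in all 3 groups. Mean CPM per kilobase was 732 in EA, 1459 in MPX and 684 in CPX for Sncg, and 235, 1303 and 230.4 in the same groups for leptin. In EA the next were Sfrp5 at 62.0 and Npr3 at 59.0 CPM per kilobase, then Igf1 at 27.7, Peg3 at 13.8, Mest at 13.7 and Bmp3 at 9.10. In MPX the order below leptin was Sfrp5 at 257, Npr3 at 237, Mest at 181, Peg3 at 34.4, Igf1 at 31.8 and Bmp3 at 24.7. In CPX it was Npr3 at 68.3, Igf1 at 32.9, Sfrp5 at 19.8, Bmp3 at 9.21, Mest at 9.10 and Peg3 at 5.18. Of 21 pairs of neighbours in these orders, 4 were apart by more than the SD of either gene over the 3 libraries: Sncg and leptin, leptin and Sfrp5, and Igf1 and Peg3 in EA, and leptin and Sfrp5 in MPX. The other neighbours did not differ beyond their spread.

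The 7 genes other than Igf1 were among the most variable of the table. The SD of log2 CPM over the 9 libraries was 3.09 for Mest, 2.83 for Sfrp5, 2.08 for Npr3, 1.94 for Lep, 1.63 for Peg3, 1.44 for Bmp3 and 1.43 for Sncg, all at or above the 97.7th percentile of listed genes. Igf1, at 0.40, was at the 44.7th percentile. Lep, Mest and Bmp3 ranked the 9 libraries identically: MPX 5, MPX 7, MPX 2, EA 7, CPX 8, CPX 4, EA 5, EA 8 and CPX 6. CPX 6 was the lowest library for 7 of the 8 genes and MPX 5 the highest for 6.

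**Figure D3:**
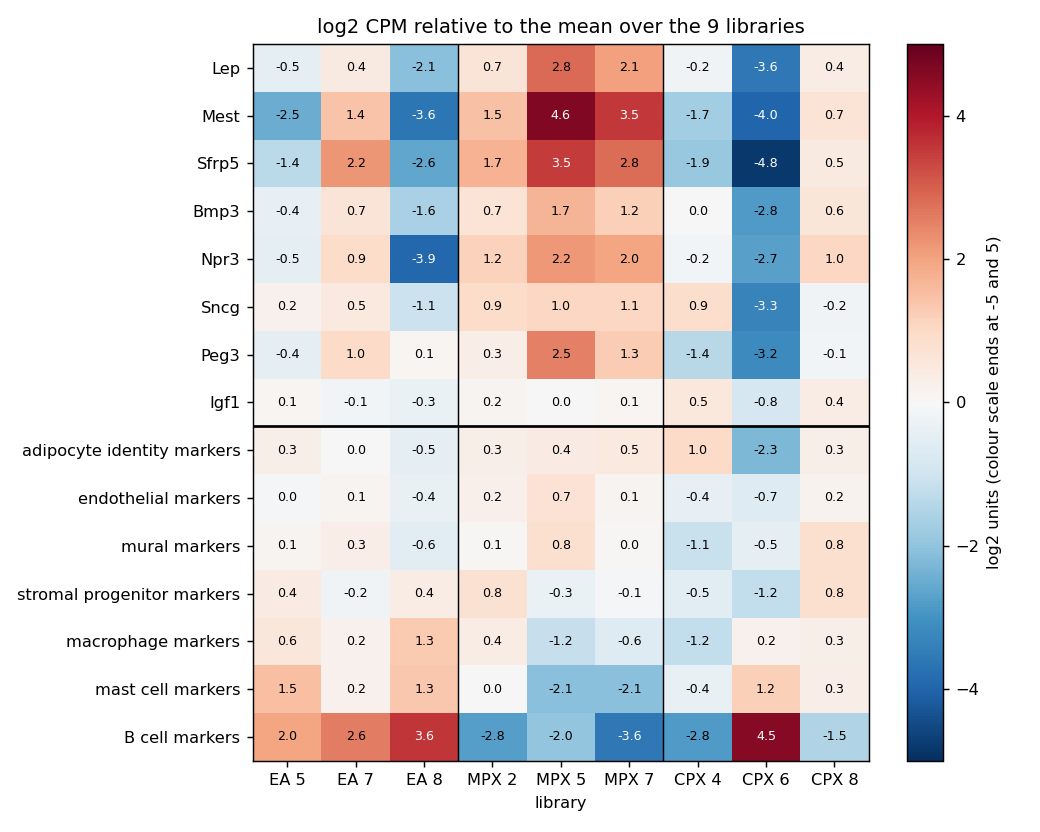
Log2 level relative to the mean over the 9 libraries (colour scale) for the 8 genes and 7 marker lists, with libraries of EA, MPX and CPX from left to right. Lep, Mest, Sfrp5, Bmp3, Npr3, Sncg and Peg3 have their highest library in MPX, and CPX 6 is low in them and in the fat cell list and high in the B cell list.

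As a description over the 9 libraries, which share depth and cell makeup across genes, Pearson's r between members ran from 0.37 to 0.98 over 28 pairs, with a median of 0.85, and 0.91 without Igf1. The listed genes most like leptin were Extl3 (r = 0.992), Mcam (0.990), Itga7 (0.986), Trp53inp2 (0.985), G6pdx (0.983) and Ptpn11 (0.982), and the least like it were Snx5 (-0.979), Skap2 (-0.975) and Tram1 (-0.970). Itga7, an integrin chain that binds laminin, had 168, 217 and 113 CPM in EA 5, 7 and 8, 261, 683 and 417 CPM in MPX 2, 5 and 7, and 179, 38.2 and 238 CPM in CPX 4, 6 and 8. Without EA 8 and CPX 6, the 2 libraries farthest from the leptin median, r with leptin was 0.985 for Extl3, 0.956 for Bmp3 and 0.953 for Mest, but 0.58 for Sncg and -0.39 for Igf1. Over all 9 libraries r with leptin was 0.884 for Sncg and 0.637 for Igf1. The likeness of Igf1 to leptin thus rests on those 2 libraries, while that of Sncg weakened without them. The genes most like the mean of the 8 members were Itih5 (0.986), Extl3 (0.985), Rtn4rl1 (0.984), Rasgrf2 (0.978), Sod3 (0.977) and Epb41l2 (0.974).

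Marker levels went with these genes in some libraries and not in others. CPX 6 and EA 8 had the lowest and next lowest summed fat cell markers, 12800 and 47950 CPM, and the lowest leptin. CPX 4 had the highest, 138400 CPM, with leptin at 900, Mest at 16.5 and Sfrp5 at 17.9 CPM, all below every MPX library. Cd79a, part of the B cell receptor, was at 87.0, 144 and 232 CPM in EA 5, 7 and 8, 1.63, 3.48 and 0.64 CPM in MPX 2, 5 and 7, and 2.37, 489 and 4.96 CPM in CPX 4, 6 and 8, so it separated EA from MPX without overlap. CPX 4 and CPX 8 had Cd79a near the MPX level, but their summed B cell markers, 1625 and 4722 CPM, were above those of every MPX library. In CPX 4 and CPX 8, 7 of the 8 members were below every MPX library. Summed macrophage markers (11 of 12 present) ranged from 2965 to 6957 CPM in EA, 1396 to 4049 CPM in MPX and 1585 to 4825 CPM in CPX. Summed mast cell markers (3 of 5 present) ranged from 213 to 524 CPM in EA, 42.2 to 182 CPM in MPX and 140.1 to 427 CPM in CPX. Stromal progenitor markers (10 of 11) ranged from 18950 to 28090 CPM in EA, 22040 to 36590 CPM in MPX and 5606 to 29440 CPM in CPX, and endothelial markers (7 of 8) from 1129 to 1522, 1528 to 2334 and 986 to 1555 CPM in the same groups. The part of B cells, macrophages and mast cells in the members' differences was not tested, apart from a fit with B cell markers as a covariate.

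Per fat cell marker count, leptin was again highest in MPX 5 and MPX 7. Leptin had 9.80, 22.6 and 5.04 counts per 1000 counts of the 19 markers in EA 5, 7 and 8, 21.4, 84.9 and 50.6 in MPX 2, 5 and 7, and 6.50, 6.78 and 18.2 in CPX 4, 6 and 8. EA 7 now lay just inside the MPX range, all 3 MPX libraries were still above CPX, and CPX 6 no longer stood apart. On this scale EA 7 was above MPX 2 for Mest, Bmp3 and Npr3 too, so EA lay below all MPX libraries in 1 of 8 members (Sncg), not 5, against 3.06% of all genes. MPX lay above all CPX libraries in 7 of 8 members, against 1.31% of all genes. For Sncg the values were 9.67, 13.95 and 6.07 in the EA libraries, 15.5, 14.9 and 15.2 in the MPX libraries, and 8.27, 4.81 and 7.41 in CPX, with MPX above all other libraries. Igf1 per 1000 marker counts was 4.22, 4.42 and 4.92 in EA, 4.33, 3.53 and 3.76 in MPX, and 3.09, 12.9 and 5.25 in CPX, so CPX 6 became its highest library.

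In a fit with these marker counts as library size, added after the data were seen, leptin differed by -2.07 for EA against MPX and by 2.32 for MPX against CPX on the log2 scale, and Igf1 by 0.22 and -0.87. That scaling moved the median of all genes to 0.47 for EA against MPX and to -1.45 for MPX against CPX, while the members' medians were -1.33 and 1.86.

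**Figure D4:**
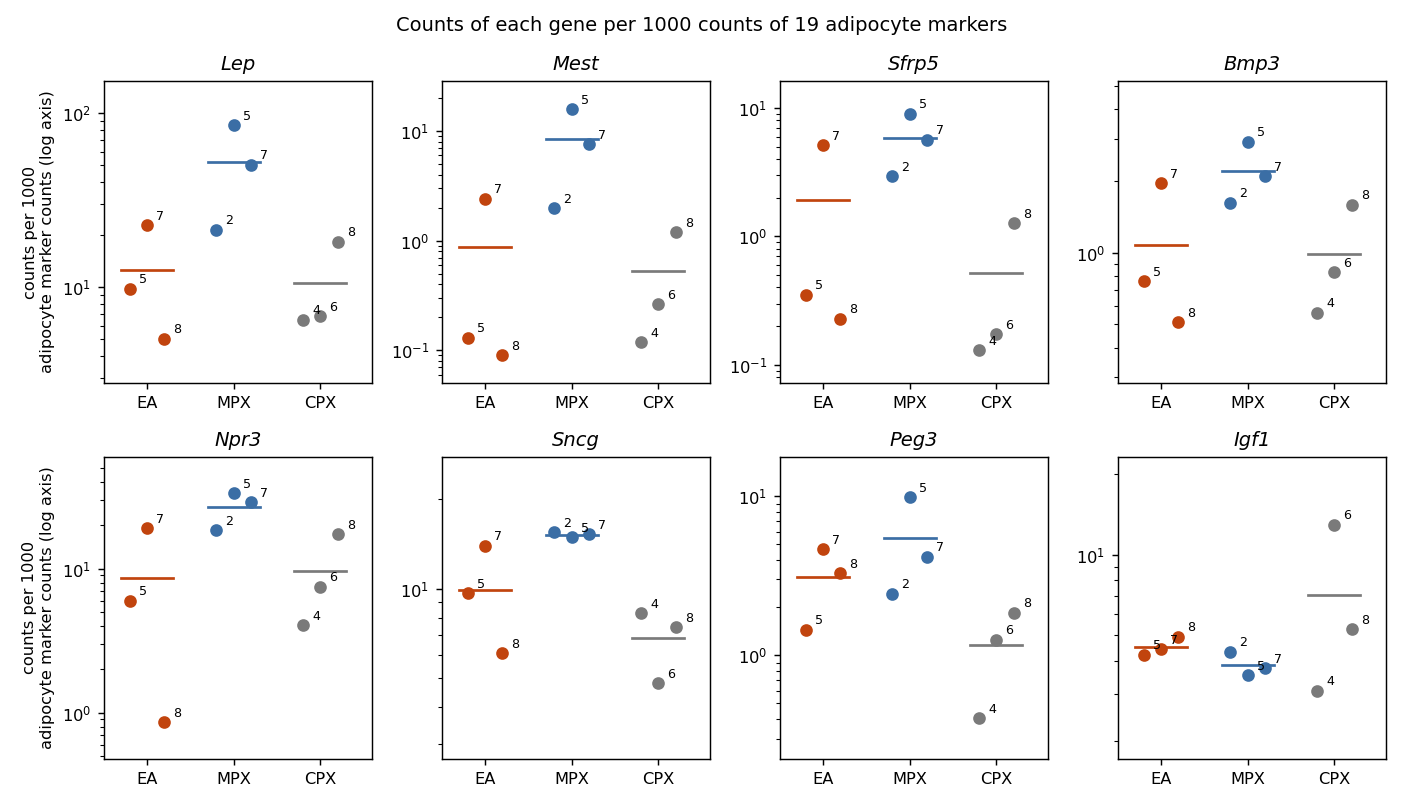
Counts of each gene per 1000 counts of 19 fat cell markers in every library (log axis), with EA, MPX and CPX from left to right. Points are libraries labelled by number and lines are group means. Leptin and Mest have their highest library in MPX, CPX 6 lies between the other CPX libraries for Lep, Mest, Sfrp5, Bmp3, Npr3 and Peg3, and it is the highest of all for Igf1 at 12.9.

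Of the listed genes around the members in their pathways, none passed edgeR's adjusted test in any comparison. Separation without overlap, given for some of them below, was common between EA and MPX. There 21.5% of all genes lay higher in EA without overlap and 19% lower. For MPX above CPX the share was 8.46%. The leptin receptor was not among the listed genes. Of 10 leptin signalling genes 7 were listed, with a median log2 difference of 0.28 for EA against MPX (6 positive, 1 negative) and -0.33 for MPX against CPX (1 positive, 6 negative), beside 0.01 and -0.11 over all genes. Ptpn1, a phosphatase that switches off leptin and insulin receptor signals, had 150.0, 124 and 259 CPM in EA 5, 7 and 8, 86.3, 79.6 and 75.1 CPM in MPX 2, 5 and 7, and 49.2, 283 and 79.4 CPM in CPX 4, 6 and 8. EA lay above MPX in all libraries, with a log2 difference of 1.15 (SE 0.60, adjusted p = 0.775). Jak2, the kinase bound to the leptin receptor, was at 83.6, 97.1 and 108 CPM in EA libraries, 70.6, 83.4 and 79.0 CPM in MPX libraries, and 69.9, 262 and 85.1 CPM in CPX.

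Of 13 genes of the insulin-like growth factor axis 9 were listed, with medians of -0.01 for EA against MPX (4 positive, 5 negative) and 0.15 for MPX against CPX (6 positive, 3 negative). Igfals, which holds Igf1 in a large complex in blood, had 62.2, 40.9 and 27.6 CPM in EA 5, 7 and 8, 64.7, 194 and 151 CPM in MPX 2, 5 and 7, and 71.1, 12.5 and 85.4 CPM in CPX 4, 6 and 8. EA was below MPX without overlap, with a log2 difference of -1.65 (SE 0.69, unadjusted p = 0.0431, adjusted p = 0.775). The growth hormone receptor Ghr was at 1214, 1026 and 843 CPM in EA libraries, 1450, 1650 and 1783 CPM in MPX libraries, and 2422, 300.1 and 1782 CPM in CPX, with EA below MPX in all libraries.

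Of 20 Wnt pathway genes 6 were listed, with medians of -0.12 for EA against MPX (1 positive, 5 negative) and 0.51 for MPX against CPX (5 positive, 1 negative). The Wnt receptor Fzd4 had 664, 887 and 265 CPM in EA 5, 7 and 8, 945, 1282 and 1163 CPM in MPX 2, 5 and 7, and 592, 137 and 994 CPM in CPX 4, 6 and 8. EA was below MPX without overlap, and CPX 8 lay inside the MPX range. The co-receptor Lrp5 had 143, 167 and 127 CPM in EA libraries, 180, 209 and 177 CPM in MPX libraries, and 97.9, 64.9 and 172 CPM in CPX, and MPX was above both other groups without overlap.

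Of 20 bone morphogenetic protein genes 7 were listed, with medians of 0.08 for EA against MPX and 0.11 for MPX against CPX, 4 positive and 3 negative in both. Of 9 natriuretic peptide genes 3 were listed (Npr1, Npr2 and Pde3b), with medians of -0.04 and 0.56 in the same comparisons, and of 11 fibroblast growth factor genes 3 were listed, with medians of -0.24 (1 positive, 2 negative) and 0.63 (3 positive). Of 17 other imprinted genes 6 were listed, with medians of 0.00 (3 positive, 3 negative) and 0.22 (5 positive, 1 negative). Nnat, a small membrane protein expressed from the paternal copy, had 1555, 2689 and 1173 CPM in EA libraries, 2523, 1318 and 1718 CPM in MPX libraries, and 2523, 142 and 1903 CPM in CPX, and all its groups overlapped. Gnas, which encodes the stimulatory G protein alpha subunit, had 123, 147 and 134 CPM in MPX against 97.7, 48.3 and 49.4 CPM in CPX, a difference on the log2 scale of 1.05 (SE 0.30, unadjusted p = 0.00793, adjusted p = 0.362).

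Low oxygen raises leptin in cultured fat cells. Of 14 symbols of genes known to respond to it, with Ero1a also under its older symbol Ero1l, 9 were listed. Their medians were -0.08 for EA against MPX and -0.12 for MPX against CPX, 3 positive and 6 negative in both. Pdk1, a kinase that keeps pyruvate out of the mitochondrial cycle, had 54.7, 43.9 and 35.3 CPM in MPX against 170.0, 133 and 84.0 CPM in CPX, which is -1.53 on the log2 scale (SE 0.29, unadjusted p = 0.000603, adjusted p = 0.362). P4ha1, a collagen prolyl hydroxylase, had 86.5, 92.6 and 143 CPM in EA against 59.7, 40.2 and 66.1 CPM in MPX, a log2 difference of 0.95 (SE 0.29, unadjusted p = 0.0112, adjusted p = 0.775).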

How the data were processed

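Total RNA of 9 libraries was prepared with an Illumina TruSeq kit, per the labels' protocols. HISAT2 2.0.5 and mm10 are named per the submitters' processing notes; which counter, annotation and strand option were used is not given in the sources used here. The deposited table holds raw counts for each gene, per the file headers, in falling order of total, and ends at 8471 counts, so column sums are not library depths. CPM and shares are over these 3958 listed genes. Columns were matched to libraries by title.

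Counts were fitted with edgeR 4.0.16 in R 4.3.3: TMM, filterByExpr (3958 genes kept), 1 mean per group over all 9 libraries, robust quasi-likelihood, Benjamini-Hochberg adjustment over all genes, threshold 0.05. The common biological coefficient of variation was 40.1%. Log2 values for the spread and correlations used a prior count of 2. The steps were tested on simulated data. The alternatives were other scalings and filters, DESeq2 1.42.0, limma voom (limma 3.58.1), robust off, only the groups compared, a marker covariate, fat cell marker counts as library size, each library left out, and the library number as a block.

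The members and gene lists were chosen with earlier results of these data known. Named genes are the members, the 6 listed genes most like and 3 least like leptin or the members' mean, and genes of the pathway lists. The labels do not say that libraries are separate mice, so p-values measure the spread between libraries, which may be technical. Replicates of a group differed in their counts by a chi-square of at least 71.5 per degree of freedom, far above sampling noise. CPX 6 was the farthest from its replicates, at 1740 with CPX 4 and 1340 with CPX 8. Its log2 CPM over all genes correlated with theirs at 0.29 and 0.37, against 0.82 to 0.97 for the other pairs of replicates. No batch is given in the labels.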

Additional observations from a re-analysis of the deposited data

How the results depend on the processing

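For the 7 members other than Igf1, differences between MPX and the other groups kept their sign in all 22 alternatives except those given below (B cell covariate, number as a block). Not all alternatives could change a sign. The filter settings and robust off left leptin's log2 differences unchanged, as did leaving out an EA library for MPX against CPX. No member was called except by DESeq2 (Peg3, MPX against CPX, given above) and, with B cell markers as a covariate, Sncg for EA against CPX (log2 2.25, adjusted p = 0.0305). Leptin's adjusted p for EA against MPX ran from 0.0964, with only those 2 groups fitted, to 0.998. All genes called for EA against MPX, EA against CPX and MPX against CPX numbered 49, 5 and 201 with DESeq2, 59, 68 and 8 with fat cell markers as a covariate and 367, 273 and 33 with B cell markers as a covariate. Fitting only the compared groups gave 84 for EA against MPX. Leaving out 1 library gave 0 to 23 calls for EA against MPX, 0 to 12 for EA against CPX (both highest without CPX 6) and 0 to 168 for MPX against CPX (highest without CPX 8). The members' median then ran from -2.67 to -1.34, from -0.71 (without EA 7) to 0.70, and from 1.63 to 2.98 in the same comparisons. The cause of these shifts was not tested.

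B cell marker levels do not overlap between EA and MPX, so that covariate and the groups cannot be told apart. With it, the members' median turned to 0.62 for EA against MPX and was 2.07 for EA against CPX. For EA against MPX it gave 0.069 for Lep, 0.82 for Bmp3, 0.82 for Igf1, 0.41 for Npr3, 0.13 for Peg3, 1.04 for Sfrp5 and 1.89 for Sncg, and for EA against CPX 1.56 for Bmp3, 0.36 for Igf1 and 1.39 for Npr3. Fat cell marker counts as library size gave Igf1 0.22 for EA against MPX.

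Values near 0 changed sign with scaling. Bmp3 for EA against CPX was 0.085 with upper quartile, 0.24 with no scaling, 0.56 with voom, 0.066 with the fat cell covariate and 0.12 with fat cell marker counts as library size. Without scaling Igf1 was 0.01 and Npr3 0.018 for EA against CPX. Igf1 for MPX against CPX was 0.047 with upper quartile, 0.116 with no scaling and 0.048 with voom. With 1 library left out, EA against CPX ran from -0.75 to 0.60 for Bmp3, -0.67 to 0.66 for Lep, -2.35 to 2.42 for Mest, -1.39 to 0.74 for Npr3, -1.01 to 3.53 for Sfrp5 and -0.45 to 1.04 for Sncg, and MPX against CPX from -0.37 to 0.23 for Igf1.

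Whether library numbers pair the samples could not be decided. Deviations of same-numbered libraries from their group means correlated at 0.02 (EA 5 and MPX 5), 0.13 (EA 7 and MPX 7) and -0.51 (EA 8 and CPX 8). These values lie within those of differently numbered libraries, from -0.67 (EA 5 and CPX 6) to 0.71 (EA 8 and CPX 6). With number as a replicate block, 6 genes were called for EA against MPX, and the members' median was -2.36 for EA against CPX and -0.29 for MPX against CPX, where groups share no number and the fit has 1 residual degree of freedom. With the block, EA against CPX was -2.46 for Lep, -4.34 for Mest, -3.08 for Sfrp5 and -0.90 for Sncg, and MPX against CPX was -0.92 for Bmp3, -0.002 for Lep, -3.08 for Npr3, -0.38 for Sfrp5 and -0.20 for Sncg.

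The lowest count of a member was 29 (Sfrp5 in CPX 6), so depth limits only the lowest Mest and Sfrp5 values. Genes below the last listed total, and the depot, cannot be judged from these counts. The main filter kept all 3958 genes, and the other filter settings repeated the main fit's values for leptin, so they do not bear on stability.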
